A study of Mus musculus with 4 samples.

Results

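Formative and primed epiblast markers were followed in day 3 EBs (embryoid bodies), the suspension aggregates formed by mouse embryonic stem cells (mESCs) as they leave self-renewal and begin to differentiate. The genes are *Fgf5*, *Pou3f1*, *Otx2*, *Pou5f1* (Oct4), *Zic2*, *Zic5*, *Pim2*, *Grhl2*, *Sall2* and *Sfmbt2*, taken by gene symbol, and they make up 10 of the 24347 gene rows of the expression tables. Of these, 9 were listed under the symbol used here and Oct4 under its official symbol *Pou5f1*. WT EBs were compared with EBs from mESCs in which CRISPR/Cas9 had removed the promoter of *Gm11549* (promoter KO, or KO), the gene that encodes the micropeptide NEMEP, with 2 samples per genotype, named WT 1, WT 2, KO 1 and KO 2. All 4 samples came from mESCs of strain 129/Ola and were collected on day 3 from suspension culture in serum medium without LIF, with no other treatment. The mutant cells were grown from single sorted cells, and the labels do not say whether the KO samples are 1 clone or 2. The study treats the samples of a genotype as biologically independent. The p-values rest on the spread between them, which the test used below (limma) combines with a spread estimated from all tested genes.

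Pluripotent cells pass through several states before they form germ layers. Naive cells correspond to the epiblast before implantation, formative cells to the epiblast just after it, and primed cells to the epiblast close to gastrulation, when cells at the posterior side enter the primitive streak. *Fgf5*, *Otx2* and *Pou3f1* are commonly used to mark the exit from the naive state, whereas *Pou5f1* is active in all of these states. The question addressed here was where the KO EBs lie between naive, formative and streak expression.

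Expression values carried no unit and were taken as FPKM, sequenced fragments relative to transcript length and to the size of the library. Levels of different genes can therefore be set side by side. *Gm11549* read 0.750 FPKM in WT 1 and 0.522 FPKM in WT 2, was listed at 0 in KO 1 and read 0.0659 FPKM in KO 2. Both KO samples lay below both WT samples, in the direction the labels give, although all 4 were under 1 FPKM, so that *Gm11549* was not tested. The EBs are labelled as mesendoderm cells derived from ES cells. The streak gene *T* was at 306 and 448 FPKM in WT 1 and WT 2 and at 50.6 and 127 FPKM in KO 1 and KO 2, so it was present in all 4 samples. The libraries held an estimated 24600000, 21800000, 21500000 and 19900000 fragments in the same order, if fragments are taken as 200 bases long. At these depths the 10 markers rested on about 578 fragments (*Sfmbt2* in WT 1) to 42900 fragments (*Pou5f1* in WT 1) per sample, and counting error was at most 4.2%.

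All 10 markers were detected in every sample, over a wide range of levels. *Pou5f1*, a POU factor at the core of the pluripotency network, was the most abundant at 1499 FPKM in WT 1, 1188 FPKM in WT 2, 1522 FPKM in KO 1 and 1545 FPKM in KO 2. It alone made up between 60.0% and 64.9% of the summed FPKM of the 10 markers in a sample. *Pim2*, a serine/threonine kinase, came second in every sample, and *Sfmbt2*, a Polycomb group protein, came last, with 3.06 and 4.67 FPKM in WT against 7.51 and 4.03 FPKM in KO. Summed over the 10 markers, the level was 2453 and 1982 FPKM in the WT samples, against 2345 and 2439 FPKM in the KO samples, so that both KO sums lay between the WT sums.

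**Figure D1:**
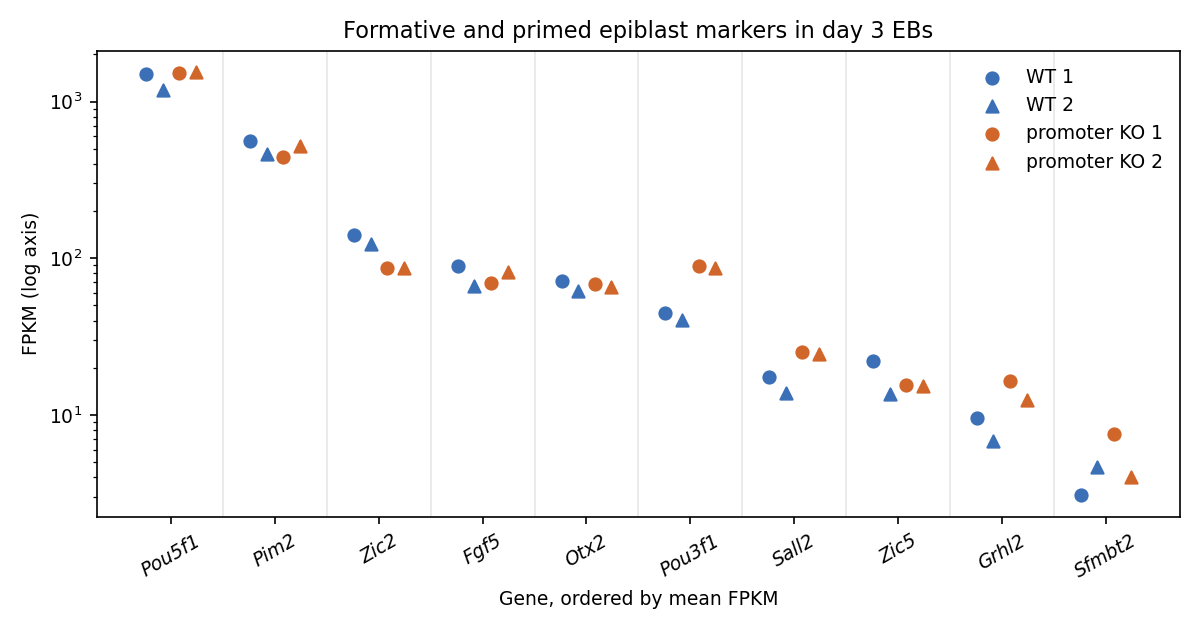
FPKM of each marker (log axis) in WT 1, WT 2, KO 1 and KO 2, 1 point per sample, with genes ordered by their mean. *Pou3f1* is higher and *Zic2* lower in both KO samples than in both WT samples, whereas *Fgf5*, *Otx2* and *Pim2* overlap.

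Of the 10 markers, 2 differed between genotypes, in opposite directions. *Pou3f1* rose and *Zic2* fell in KO EBs, while *Fgf5* and *Otx2* stayed within 0.03 of 0 on the log2 scale. Genotypes were compared on log2(FPKM + 1) with limma for the 11941 genes with 1 FPKM or more in 2 or more samples, and genes with a Benjamini-Hochberg adjusted p under 0.05 over all of them were called. All 10 markers passed this filter. Called higher were 1 of the 10 markers and 1.68% of all tested genes (201), and called lower were 1 of the 10 and 1.89% of all tested genes (226). At an unadjusted p under 0.05, 3 markers were higher and 1 was lower, against 15.0% and 15.6% of all tested genes. Both KO samples lay above both WT samples in 4 markers (*Pou3f1*, *Grhl2*, *Sall2* and *Pou5f1*), against 32.9% of all tested genes, and below both in 1 marker (*Zic2*), against 32.4%. The median log2 difference of the 10 markers was 0.10, and that of all tested genes was 0.00. The median of the markers was −0.03 without WT 2, 0.19 without WT 1 and 0.01 with a filter at a mean of 5 FPKM, so its direction rests on the samples included. Without WT 2 or without KO 1, 0 of the 11941 genes were called by limma, with 1875 and 2009 genes at an unadjusted p under 0.05, and 0 were called when all 18215 genes above 0 in any sample were tested, with 4059 at an unadjusted p under 0.05. In these EBs, fewer cells of a type and less RNA per cell cannot be told apart.

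*Pou3f1* (also Oct6) encodes a POU factor of the post-implantation epiblast and of neural and glial lineages. It lies at chr4:124656807-124660655 on the plus strand (GRCm38) and has a single annotated transcript of 3849 bases. Its level was 44.6 FPKM in WT 1 and 40.2 FPKM in WT 2, and 88.9 FPKM in KO 1 and 87.0 FPKM in KO 2. Both KO samples were thus well above both WT samples, and the samples of each genotype were close together. The KO mean was 2.07 times the WT mean, and the log2 difference was 1.04 (standard error 0.09, 95% interval 0.82 to 1.25, adjusted p = 0.0208, limma). The call was lost without WT 2 (adjusted p = 0.112) and without KO 1 (adjusted p = 0.0951, limma), within a range of 0.00826 to 0.133 over the alternatives, while the log2 difference stayed between 0.96 and 1.11. An annotated antisense gene on the opposite strand, *Gm2164*, shares 331 bases with it, and the methods map with TopHat at its defaults, which treat reads as unstranded, so reads of the 2 genes may not have been told apart. Among its relatives, *Pou3f2*, *Pou3f3* and *Pou3f4* were below 1 FPKM in all 4 samples and were not tested.

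*Zic2* and *Zic5* encode zinc finger factors and lie head to head on chromosome 14, 9757 bases apart, with *Zic5* at chr14:122456795-122465677 on the minus strand and *Zic2* at chr14:122475435-122479852 on the plus strand. *Zic2* was at 140 FPKM in WT 1, 124 FPKM in WT 2, 86.5 FPKM in KO 1 and 86.7 FPKM in KO 2. Both KO samples lay below both WT samples. The KO mean was 0.656 times the WT mean, and the log2 difference was −0.60 (standard error 0.09, 95% interval −0.82 to −0.38, adjusted p = 0.0389, limma). The decrease kept its direction without each of the 4 samples but lost its call each time, with an adjusted p of 0.0926 without WT 1, 0.155 without WT 2, 0.151 without KO 1 and 0.0558 without KO 2 (limma, range 0.0207 to 0.155 over the alternatives). Without the intensity trend of the limma model the call was lost as well (adjusted p = 0.0677). *Zic5* was at 22.1 and 13.7 FPKM in the WT samples, against 15.4 FPKM in both KO samples. The WT values enclosed those of KO, and the difference of −0.17 (95% interval −0.69 to 0.35, adjusted p = 0.621, limma) was not resolved. A gene 98.9% identical to *Zic5* over 726 bases, *Gm12241*, is annotated elsewhere, so the level of *Zic5* is uncertain. Whether *Zic2* and *Zic5* differed from each other in their change was not tested.

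Set against each other within a sample, *Pou3f1* and *Zic2* stood in different proportions in the 2 genotypes. The ratio of *Pou3f1* to *Zic2* FPKM was 0.319 in WT 1, 0.325 in WT 2, 1.03 in KO 1 and 1.00 in KO 2. This pair was chosen after its values were seen, and the ratio was not tested. From 2 samples per genotype, an exact permutation test of such a ratio could not give a two-sided p below 0.333.

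*Fgf5* encodes a secreted growth factor that marks the post-implantation epiblast, and it lies at chr5:98254184-98277030. It was at 88.9 FPKM in WT 1, 66.3 FPKM in WT 2, 69.2 FPKM in KO 1 and 81.4 FPKM in KO 2. The KO samples lay between the WT samples. The log2 difference was −0.03 with a 95% interval from −0.42 to 0.35 (adjusted p = 0.904, limma), which covers changes from 0.748 to 1.28 times the WT level on this scale. *Otx2*, a homeodomain factor of the formative epiblast and later of the anterior neural plate, was at 71.4 and 61.9 FPKM in WT against 68.1 and 65.4 FPKM in KO. Its interval was narrower, from −0.23 to 0.25 around a difference of 0.01 (adjusted p = 0.974, limma), or 0.850 to 1.19 times the WT level. A change of *Otx2* as large as that of *Pou3f1* therefore lay outside its interval, as it did for *Fgf5*. The direction of both small differences depended on the samples included. An antisense gene overlapping *Otx2*, *Otx2os1*, was listed at 0 in all 4 samples.

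*Pou5f1* and *Pim2* were the most abundant markers, and neither passed the test. The values of *Pou5f1* given above put both KO samples just above WT 1, the higher WT sample, and the log2 difference was 0.20 (95% interval −0.09 to 0.49, adjusted p = 0.296, limma). This difference was 0.03 without WT 2 and 0.37 without WT 1. *Pim2* was at 556 and 462 FPKM in WT against 446 and 517 FPKM in KO, which overlapped, with a log2 difference of −0.08 (95% interval −0.37 to 0.21, adjusted p = 0.677, limma). Its relatives *Pim1* and *Pim3* had log2 differences of −0.45 (adjusted p = 0.0760) and −0.44 (adjusted p = 0.118, limma), neither of which was called.

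RefSeq promoter sequence was at hand for 7 of the 10 markers, and not for *Pou3f1*, *Zic2* and *Grhl2*. The octamer ATGCAAAT, which POU factors such as the products of *Pou5f1* and *Pou3f1* bind, was searched on both strands in the 250 bases before each annotated start, and 1.6% of 32851 such windows in the mouse genome held it. Among the markers with a window, *Pim2* held it, at 2 places. The stretch upstream of the first *Pim2* exon is shown because it holds these letters, with the octamers and a CAGCAGG (a motif bound by Zic factors, in 8.44% of windows) in capitals. It spans chrX:7878056-7878261 on the plus strand (RefSeq, GRCm38.p6).
*Pim2* promoter: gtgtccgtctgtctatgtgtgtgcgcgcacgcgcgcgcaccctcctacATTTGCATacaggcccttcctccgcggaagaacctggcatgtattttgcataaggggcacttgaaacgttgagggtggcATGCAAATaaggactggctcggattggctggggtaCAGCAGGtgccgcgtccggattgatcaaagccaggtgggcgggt
Of the 2 octamers the first is read on the opposite strand. Of the other motifs searched, TAATCC, which homeodomain factors of the Otx type bind (6.25% of windows), was found in 1 window each of *Otx2* and *Pou5f1*, and AACCGGTT, which grainyhead factors bind (0.116% of windows), in 0 of the markers' windows. A match of letters is no evidence of binding in these EBs, and *Pim2* itself did not pass the test.

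*Grhl2* and *Sall2* lay higher in KO EBs without passing the threshold. *Grhl2*, a grainyhead factor of epithelial genes that is active in the formative epiblast, was at 9.49 FPKM in WT 1, 6.82 FPKM in WT 2, 16.5 FPKM in KO 1 and 12.5 FPKM in KO 2. The genotypes did not overlap, and the log2 difference was 0.76 (95% interval 0.28 to 1.24, adjusted p = 0.0746, limma). *Sall2*, a zinc finger factor of the spalt family, was at 17.5 and 13.7 FPKM in WT against 25.3 and 24.6 FPKM in KO, again without overlap (log2 difference 0.65, 95% interval 0.32 to 0.99, adjusted p = 0.0564, limma). Its relative *Sall3* fell (log2 difference −0.78, adjusted p = 0.0472, limma), and *Sall4* had a difference of −0.04. *Sfmbt2* overlapped between genotypes, with a log2 difference of 0.45 (95% interval −0.26 to 1.16, adjusted p = 0.335, limma), and KO 1 was its highest sample. This difference lay between 0.07 (without KO 1) and 0.83 (without KO 2) when 1 sample was left out.

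**Figure D2:**
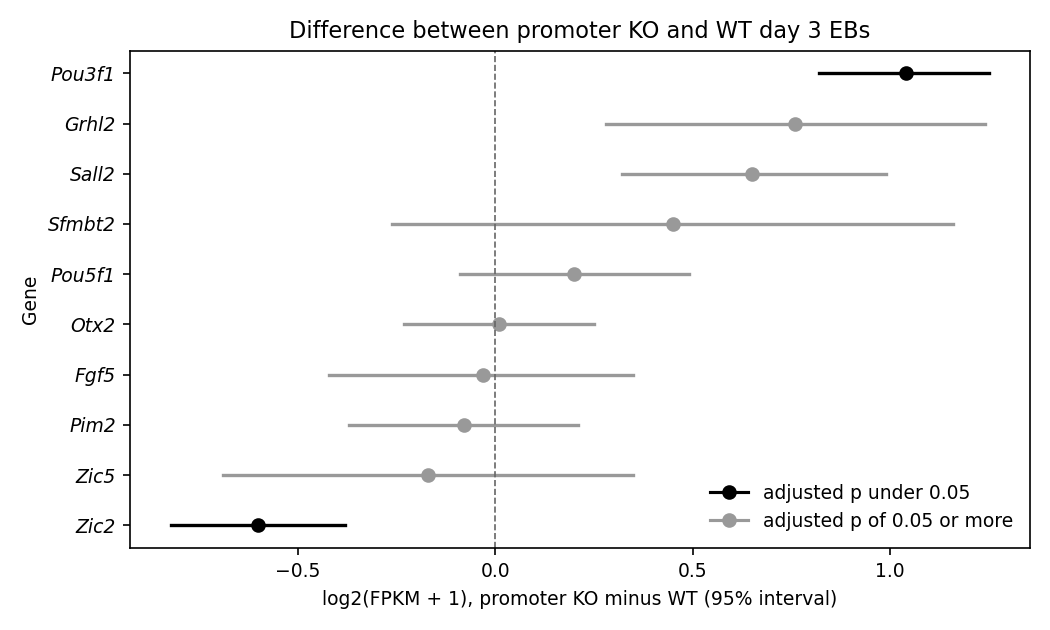
Difference in log2(FPKM + 1) between KO and WT EBs for each marker, with points for the limma estimate and lines for its 95% interval. Black marks the called genes, *Pou3f1* at 1.04 and *Zic2* at −0.60, and grey marks the other 8.

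Other genes of the formative state were more often higher than lower. Of 11 such genes, all of them tested, 4 rose and 0 fell (5 and 0 at an unadjusted p under 0.05 with limma). Among all tested genes, 1.68% rose and 1.89% fell (15.0% and 15.6% at an unadjusted p under 0.05 with limma). The median log2 difference of the 11 was 0.38, against 0.00 over all tested genes. This median lay between 0.33 (without KO 1) and 0.70 (without KO 2) when 1 sample was left out. The de novo methyltransferase *Dnmt3a* (log2 difference 0.81, adjusted p = 0.0442), its cofactor *Dnmt3l* (1.92, adjusted p = 0.0422), the chromatin factor *Utf1* (1.35, adjusted p = 0.0275) and *Sox3* (0.70, adjusted p = 0.0493, limma) were the genes called. *Dnmt3b*, at 427 and 296 FPKM in WT against 417 and 447 FPKM in KO, was not (log2 difference 0.28, adjusted p = 0.305, limma), nor were *Tcf15* (0.38), *Foxd3* (0.96) and *Lef1* (−0.20). The study counts *Dnmt3l* and *Utf1* among pluripotency genes that had not declined in the promoter KO, so formative is not the only name given to them. The count of 4 fell to 1 without WT 1, 2 without KO 2 and 0 without WT 2 or without KO 1, where 5 and 6 of the 11 were higher at an unadjusted p under 0.05.

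Of 15 naive genes, 14 were tested, and 1 of them rose and 0 fell (7 and 1 at an unadjusted p under 0.05 with limma). Among all tested genes, 1.68% rose and 1.89% fell (15.0% and 15.6% at an unadjusted p under 0.05 with limma). The median log2 difference of the 14 naive genes was 0.82, against 0.00 over all tested genes. It lay between 0.59 (without KO 1) and 1.34 (without WT 2) when 1 sample was left out. The gene called was *Nr5a2*, a nuclear receptor that can activate *Pou5f1*, at 0.596 and 0.842 FPKM in WT against 3.52 and 2.42 FPKM in KO (log2 difference 1.20, adjusted p = 0.0431, limma). It passed the filter through the KO samples alone, where it is high, and of the other 13 tested genes 0 rose (6 at an unadjusted p under 0.05 with limma), with a median of 0.80. These 6 include *Tcl1*, at 0.757 and 1.79 FPKM in WT against 6.58 and 2.49 FPKM in KO. It too passed only with the KO samples, where it is high, so the 13 are not free of this selection. The count over all 14 was 0 without WT 1, without WT 2 and without KO 1, with 3, 11 and 4 of the 14 higher at an unadjusted p under 0.05, and it was 5 without KO 2. *Klf2* (0.80), *Zfp42* (1.01) and *Klf5* (0.55), named for their abundance, had positive log2 differences that were not called. Of these, only *Zfp42* is among the 7 genes higher at an unadjusted p under 0.05 (limma). In 8 of the 14 naive genes, *Nr5a2* and *Tcl1* included, both KO samples lay above both WT samples, and in 1 below both. The shares of all tested genes were 32.9% and 32.4%. *Nanog*, the most abundant naive gene in all 4 samples, had a log2 difference of −0.38 (adjusted p = 0.0974, limma), with 140 and 113 FPKM in WT against 94.1 and 98.7 FPKM in KO. Of 5 genes of general pluripotency, all of them tested, 1 fell and 0 rose (1 and 2 at an unadjusted p under 0.05 with limma). The shares of all tested genes were 1.89% and 1.68% (15.6% and 15.0% at an unadjusted p under 0.05 with limma). *Tdgf1*, which encodes the Nodal coreceptor Cripto, fell (log2 difference −0.55, adjusted p = 0.0422, limma), while *Sox2* (0.76), *Zfp281* (0.71), *Lin28a* (0.02) and *Sall4* were not called. For *Sox2* and *Zfp281* both KO samples lay above both WT samples, as in 32.9% of all tested genes. *Tdgf1* was not called when WT 1, WT 2 or KO 1 was left out, nor without the intensity trend.

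Of 12 streak genes, all of them tested, 7 fell and 0 rose (12 and 0 at an unadjusted p under 0.05 with limma), and in all 12 both KO samples lay below both WT samples, against 1.89% of all tested genes called lower, 15.6% lower at an unadjusted p under 0.05 and 32.4% with both KO samples below both WT samples. Their median log2 difference was −2.11, between −2.73 (without KO 2) and −1.49 (without KO 1) when 1 sample was left out. One of them, *Tbx6*, which was not called, passed the filter through the WT samples alone, and the other 11 include all 7 calls and had a median of −2.19. Of these 11, *Mesp1*, which was called, was at 0.759 FPKM in KO 1 and 4.24 FPKM in KO 2. It too passed only with the WT samples, where it is high, so the 11 are not free of this selection. The genes called were *Mixl1*, *Gsc*, *Evx1*, *Mesp1*, *Lhx1*, *Fgf8* and *Sp5*, with log2 differences from −4.14 (*Mesp1*) to −1.71 (*Fgf8*). *T* (−2.19), *Eomes* (−1.16), *Wnt3* (−1.28) and *Foxa2* (−0.98) were not called. The count of 7 was 10 without KO 2, and it fell to 3 without WT 1 and to 0 without WT 2 or without KO 1, where 12 and 10 of the genes were lower at an unadjusted p under 0.05. Without the intensity trend 1 streak gene was called lower, and 0 naive and 0 other formative genes were called higher.

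**Figure D3:**
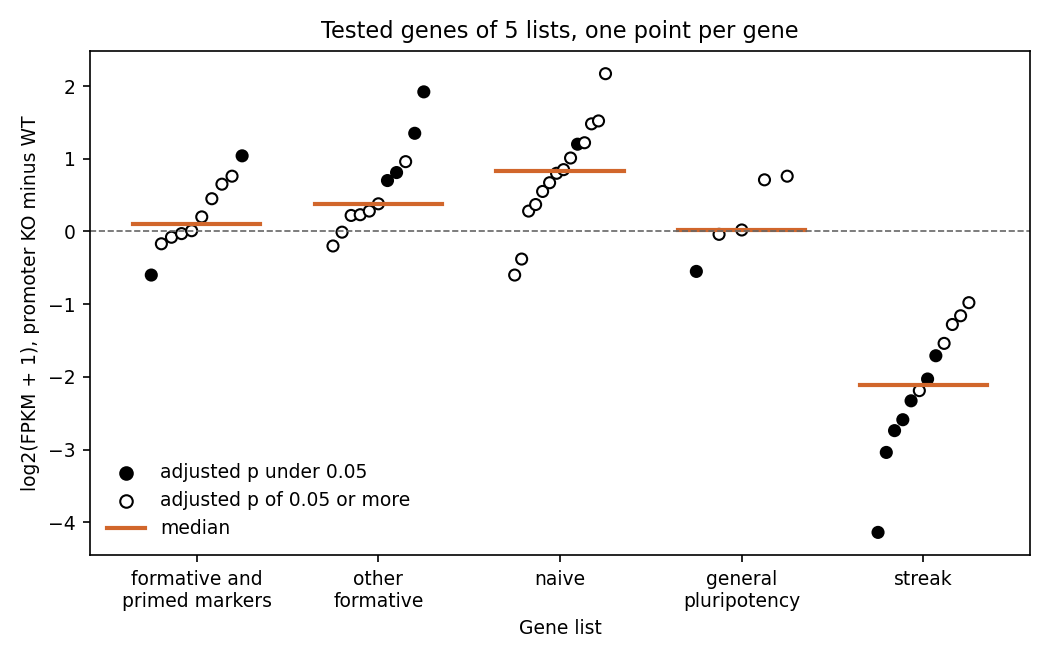
Difference in log2(FPKM + 1) between KO and WT EBs for the tested genes of 5 lists, 1 point per gene, filled where called, with a line at the median of each list. The median is 0.10 for the 10 formative and primed markers, 0.38 for the other formative genes, 0.82 for naive genes, 0.02 for general pluripotency and −2.11 for streak genes.

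The samples were then placed by the median deviation of each list from the mean of all 4 samples on the log2 scale. For the 10 formative and primed markers this deviation was 0.08 in WT 1, −0.22 in WT 2, 0.06 in KO 1 and 0.08 in KO 2. Both KO samples thus lay within the range of the WT samples. For naive genes it was −0.85 and −0.20 in the WT samples, against 0.68 and 0.14 in the KO samples, and for streak genes 0.87 and 1.24 in WT and −1.64 and −0.58 in KO. On both of these lists the genotypes were apart, and KO 1 was farther from WT than KO 2. The lists were chosen with results known. They include *Nr5a2*, *Tcl1*, *Tbx6* and *Mesp1*, which passed the filter only with the genotype where they are high. The separation is thus not free of this selection. Single genes were often apart too, with both KO samples above both WT samples in 32.9% of all tested genes and below both in 32.4%. For the other formative genes the deviation was −0.15 and −0.46 in WT and 0.44 and 0.19 in KO.

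**Figure D4:**
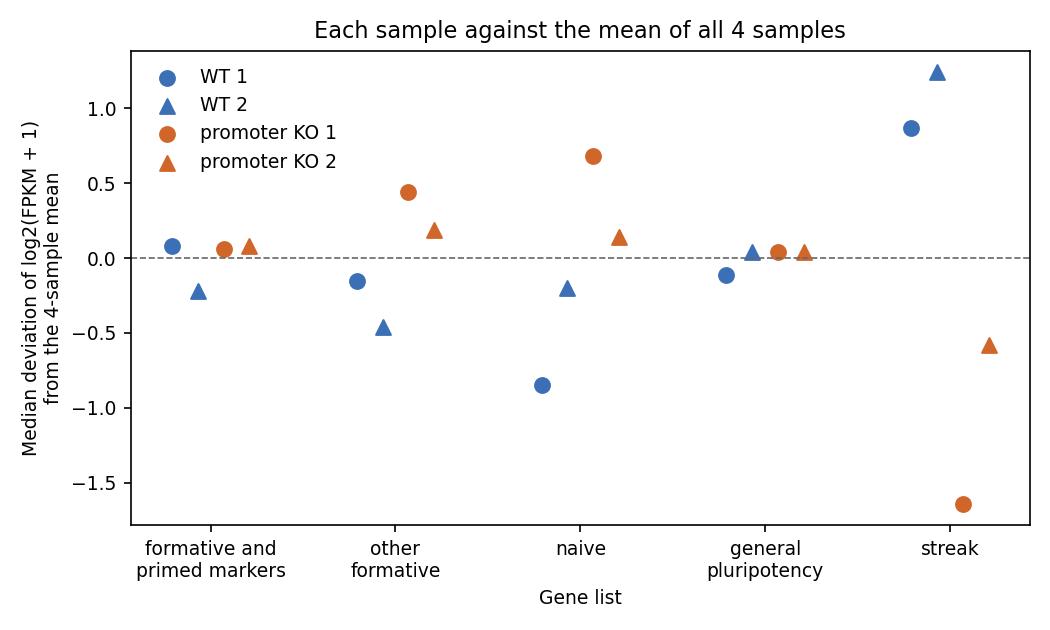
Median deviation of log2(FPKM + 1) from the mean of the 4 samples, for each sample and 5 gene lists. The genotypes are apart for streak, naive and other formative genes and overlap for the 10 formative and primed markers, where KO lies at 0.06 and 0.08, and for general pluripotency. The naive and streak lists include genes that passed the filter only with the genotype where they are high.

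Samples of the same genotype differed in these lists too. WT 1 was above WT 2 in 9 of the 10 markers, all but *Sfmbt2*, against 50.9% of all tested genes, but in 2 of 14 naive and 2 of 12 streak genes. KO 1 was above KO 2 in 6 of the 10 markers and in 12 of 14 naive genes, but in 0 of 12 streak genes, against 46.5% of all tested genes. Between these 2 samples, *Pou3f1* (88.9 and 87.0 FPKM) and *Zic2* (86.5 and 86.7 FPKM) were nearly equal, while *T* ranged from 50.6 to 127 FPKM.

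Markers of other cell types also moved with genotype. Of 10 markers of extraembryonic endoderm, all of them tested, 5 rose (*Sox7*, *Dab2*, *Ttr*, *Amn* and *Cubn*) and 0 fell (6 and 2 at an unadjusted p under 0.05 with limma). Among all tested genes, 1.68% rose and 1.89% fell (15.0% and 15.6% at an unadjusted p under 0.05 with limma). The median log2 difference of the 10 markers of extraembryonic endoderm was 1.26. *Sox17* (−0.79, adjusted p = 0.0779) and *Pdgfra* (−1.04, adjusted p = 0.159, limma) went the other way, with both KO samples below both WT samples, as in 32.4% of all tested genes. These 2 were not called, nor were *Afp* (1.39) and *Gata4* (0.18). *Sox7* and *Cubn* passed the filter through the KO samples alone, and of the other 8 genes 3 rose, with a median of 0.82. Of these 8, *Ttr*, which rose, and *Afp* reached 1 FPKM in WT 1 but not in WT 2 (0.996 FPKM for *Ttr* and 0.0242 FPKM for *Afp*). They too passed only with the KO samples, where they are high, so the 8 are not free of this selection. The summed level of all 10, *Sox7* and *Cubn* included, was 32.5 FPKM in WT 1, 49.8 FPKM in WT 2, 60.5 FPKM in KO 1 and 78.9 FPKM in KO 2, led by *Sox17*, *Gata4*, *Amn* and *Dab2* in turn, and none of the 10 was listed at 0. *Sox17* and *Gata4* are also active in mesendoderm. *Otx2* is also active in visceral endoderm, and the part that these cells had in the values of the 10 markers was not tested. Without WT 2 or without KO 1, 0 of the 10 were called, and 7 were higher at an unadjusted p under 0.05 in each case, while 3 rose without KO 2. Of 11 neuroectoderm genes, 1 passed the filter, *Nes*, with a log2 difference of −1.10 (adjusted p = 0.0831, limma), and the summed level of the 11 was 23.7 and 26.8 FPKM in WT against 11.2 and 18.2 FPKM in KO, most of it *Nes*. Without *Nes* the sum went the other way, from 2.08 and 2.28 FPKM in WT to 4.31 and 3.48 FPKM in KO, and both KO samples lay above both WT samples in 7 of these 10 genes and below both in 1, against 23.1% and 15.7% of the 6274 genes that were above 0 in any sample but did not pass the filter. The list was chosen with results known, so nothing is drawn from the count. *Pou3f1* is also used in neural cells. *Sox1* and *Pax6*, which define neuroectoderm, were below 1 FPKM in all 4 samples but higher in both KO samples, as *Pou3f1* was, with *Sox1* at 0.0523 and 0.0942 FPKM in WT against 0.357 and 0.269 FPKM in KO. *Pax6* was at 0.1002 and 0.164 FPKM in WT against 0.565 and 0.544 FPKM in KO. These genes were not tested, and neither was the part of neural cells in the values of *Pou3f1*.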

How the data were processed

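RNA-seq was made from 2 WT and 2 promoter KO samples, grouped by their labels. The methods name TopHat, Cufflinks and GENCODE M4 for mm10, whereas the submitters' processing notes name HISAT2 2.1.0, Cufflinks and Cuffnorm. The deposited values carry no unit, are called RPKM in the methods, and were taken as FPKM because Cufflinks made them. By the methods, TopHat was run at its defaults, which treat reads as unstranded, and no strand setting is given for the pipeline of the notes. Which of these pipelines made the deposited values is not known. From these, log2(FPKM + 1) was tested with limma 3.58.1 in R 4.3.3 (eBayes with an intensity trend, no block), adjusted over 11941 genes, after a test on simulated data. Positions came from GENCODE M21 and copies of at least 95% identity over 200 bases from BLAST 2.17.0. The members and lists were chosen with earlier results of these data known. Named were the 10 markers, the targeted gene, list genes with an adjusted p under 0.05 and up to 4 more per list with the highest mean FPKM, and genes outside this rule (*Otx2os1*, *Gm2164*, *Gm12241*, *Pou3f2* to *Pou3f4*, *Sox1*, *Pax6*, *Tbx6* and *Tcl1*) were added after their values were seen. A gene that the rule names is not reported here. Alternatives were another pseudocount, other filters, no trend, centring, a replicate block and each sample left out. Those for read counts were not run.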

Additional observations from a re-analysis of the deposited data

How the results depend on the processing

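The log2 differences of *Pou3f1* and *Zic2* kept their direction under every alternative run, and those of *Grhl2*, *Sall2*, *Sfmbt2* and *Pou5f1* did too. With each sample left out in turn, where the lone sample of a genotype is assumed to vary like the other genotype, the log2 difference changed sign in *Fgf5* (−0.24 to 0.18), *Otx2* (−0.10 to 0.11), *Zic5* (−0.49 to 0.16) and *Pim2* (−0.21 to 0.05). The genes called then ranged from 0 to 248 lower and from 0 to 238 higher, the markers called from 0 to 0 lower and from 0 to 1 higher, and the calls in the lists from 0 to 2 other formative genes higher, 0 to 5 naive genes higher and 0 to 10 streak genes lower. These fits have fewer samples, and the cause of the differences among them was not tested. With all 18215 genes above 0 in any sample, limma called 0 genes in either direction, and so 0 markers and 0 genes of each list, although an unadjusted p under 0.05 was reached by 2077 genes on the higher and 1982 on the lower side. A filter at a mean of 5 FPKM, which leaves out *Sfmbt2* and *Nr5a2*, gave 108 genes lower, 95 higher and 4 streak genes lower, and 0 naive genes higher because the naive gene called was no longer tested. Without the intensity trend 27 genes were lower and 55 higher, with 0 markers lower (1 at an unadjusted p under 0.05), 0 other formative and 0 naive genes higher (5 and 7 at an unadjusted p under 0.05), and 1 streak gene lower. Median centring gave 126 genes lower and 4 streak genes lower. The cause was not tested for the other changes. With the replicate number as a block, 667 genes were lower and 535 higher, 3 markers were higher (*Pou3f1*, *Grhl2* with an adjusted p of 0.0267 and *Sall2* with 0.0360, limma) and 3 naive genes were higher. The labels do not say that the numbers pair samples, and deviations of same-numbered samples correlated at 0.0348. A pseudocount of 0.1 left these counts within 1.5 times. Depth limits *Sfmbt2* most, at about 578 fragments in WT 1.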

Other observations

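Of 7 trophoblast markers, 5 were tested, and *Tfap2c*, which is also active in germ cell precursors, fell (log2 difference −1.48, adjusted p = 0.0422, limma) and 0 rose (2 lower but 1 higher at an unadjusted p under 0.05). Among all tested genes, 1.89% fell and 1.68% rose (15.6% and 15.0% at an unadjusted p under 0.05 with limma). *Tfap2c* was at 9.60 and 16.2 FPKM in WT against 3.87 and 3.83 FPKM in KO. *Cdx2*, a homeobox gene of trophoblast and of the posterior streak, was at 25.4 FPKM in WT 2 and between 2.49 and 5.77 FPKM in the other 3 samples (adjusted p = 0.177, limma). *Ascl2* (0.52), *Krt7* (−0.68) and *Esx1* (0.50) had log2 differences that were not called.

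Of 7 epithelial genes, all of them tested, 0 were called in either direction by limma (0 higher but 1 lower at an unadjusted p under 0.05), with a median log2 difference of −0.19. *Cdh1* was at 145 and 128 FPKM in WT against 152 and 162 FPKM in KO. *Epcam* (0.13), *Cldn6* (0.12) and *Cldn7* (−0.34) were not called either. Of 17 genes from the families of the markers, 10 were tested, 1 fell (*Sall3*) and 0 rose (3 lower but 2 higher at an unadjusted p under 0.05 with limma), with a median of 0.06. For both lists, the shares of all tested genes were 1.68% higher and 1.89% lower (15.0% and 15.6% at an unadjusted p under 0.05 with limma). As for all tested genes, the calls of *Tfap2c* and *Sall3* were lost without WT 2 and without KO 1.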
